A study of Mus musculus with 3 samples.

Results

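The 40 genes described here encode proteins that carry a cell from G2 through mitosis and cytokinesis: the Cdk1 and cyclin switch, mitotic kinases, spindle checkpoint, kinetochore, anaphase machinery, spindle motors and the transcription factors that drive them. They were named by function and taken from the gene symbols of the deposited count table, where all 40 were found among 44788 symbols. The table holds 3 RNA-seq libraries of T lymphocytes from spleens of female BALB/c mice aged 6 to 8 weeks, isolated with magnetic beads against CD90.2 (Thy1) and treated for 15 h with LZ-8 in medium with 2% fetal bovine serum. LZ-8 is an immunomodulatory protein of the fungus Ganoderma lucidum that acts as a T cell mitogen. The 3 libraries (replicates 1, 2 and 3) are a single group that shares the treatment, and untreated cells were not analysed here, so no comparison with an unstimulated state is made. The labels name no mouse or culture for a replicate and do not mention pooling, so the spread may be wholly technical.

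A resting T cell holds most mitotic genes silent. The DREAM complex, in which pocket proteins and E2F4 sit on the MuvB core, represses them, and in G2 the MuvB core joins B-MYB (gene Mybl2) and FOXM1 to activate the same promoters through a promoter element called the cell cycle genes homology region (CHR). After mitogenic stimulation a T cell first grows and enters S phase, and mitotic transcripts peak last. The proteins then act in a fixed sequence: Cdk1 with cyclin B starts mitosis, the spindle checkpoint holds Cdc20 back until kinetochores are attached, and the anaphase-promoting complex (APC/C) with Cdc20 then destroys securin and cyclin B.

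Promoter sequence was examined first, because the rule that chose the genes did not use it. RefSeq promoter windows (GRCm38.p6, 250 bases before the gene start and 50 after it) were present for 32 of the 40 genes; Aurkb, Ccna2, Cdc25c, Foxm1, Incenp, Kif20a, Spc24 and Tpx2 had no entry. The motifs searched on both strands were the CHR letters TTTGAA or TTTAAA, the letters CCAAT of the CCAAT box (bound by the factor NF-Y), and the E2F letters TTCCCGC or TTGGCGC. With the first listed window of each gene, 25 of the 32 members (78.1%) held a CHR match, against 27.8% of the 26994 genes with a window. A CCAAT match was present in 22 members (68.8%), against 37.9% of all genes, and at least 2 CCAAT matches were present in 14 members (43.8%), against 12.1%. Both a CHR and a CCAAT match were present in 20 members (62.5%), against 10.9% of all genes. The E2F letters were found in 5 members (15.6%), against 6.93%. These shares describe short letter strings, which base composition also affects, and a match is not a measured binding site.

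The 150 bases directly upstream of the RefSeq start are shown for both B cyclins, 3 regulators of their activity or destruction (Cdc20, Plk1 and Aurka) and Bub3, the member with the highest level. Capitals mark matches to the CHR, CCAAT and E2F letters on either strand. Upstream refers to the RefSeq start only. The GENCODE vM21 models used below for exon lengths start elsewhere. Those of Ccnb1 (100786570), Cdc20 (118437352) and Bub3 (131560222) start inside the stretch shown. Ccnb1 lies at chr13:100786487-100786636 on the minus strand, Ccnb2 at chr9:70421555-70421704 on the minus strand, Cdc20 at chr4:118437344-118437493 on the minus strand, Plk1 at chr7:122159285-122159434 on the plus strand, Aurka at chr2:172370571-172370720 on the minus strand and Bub3 at chr7:131560220-131560369 on the plus strand (GRCm38.p6).
Ccnb1: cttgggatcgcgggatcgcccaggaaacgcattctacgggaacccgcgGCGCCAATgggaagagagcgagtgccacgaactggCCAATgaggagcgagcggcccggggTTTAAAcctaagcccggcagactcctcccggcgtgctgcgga
Ccnb2: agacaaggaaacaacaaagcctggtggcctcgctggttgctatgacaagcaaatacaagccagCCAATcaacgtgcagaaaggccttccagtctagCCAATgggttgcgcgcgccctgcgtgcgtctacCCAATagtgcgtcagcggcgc
Cdc20: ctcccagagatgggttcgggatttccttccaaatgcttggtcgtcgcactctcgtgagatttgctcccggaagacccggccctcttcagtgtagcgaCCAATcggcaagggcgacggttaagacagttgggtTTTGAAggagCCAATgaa
Plk1: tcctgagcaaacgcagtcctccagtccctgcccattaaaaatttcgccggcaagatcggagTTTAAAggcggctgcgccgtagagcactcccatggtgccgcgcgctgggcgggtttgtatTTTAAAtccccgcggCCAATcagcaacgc
Aurka: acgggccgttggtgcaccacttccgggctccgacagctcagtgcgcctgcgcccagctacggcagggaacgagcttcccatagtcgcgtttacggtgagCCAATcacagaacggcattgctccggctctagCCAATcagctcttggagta
Bub3: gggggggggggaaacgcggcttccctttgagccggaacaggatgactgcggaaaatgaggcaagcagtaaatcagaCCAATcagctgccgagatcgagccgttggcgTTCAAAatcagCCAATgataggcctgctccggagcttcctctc
In Ccnb1 the first capital run joins an E2F match and a CCAAT match that overlap, and the CHR match is the run of T and A nearest the start. Cdc20 and Bub3 each held a CHR match between a pair of CCAAT boxes, and Plk1 held 2 CHR matches and a CCAAT box. In Ccnb2 and Aurka the stretch shown held CCAAT boxes only, and at least 1 CHR match lay within the 50 bases after the start in both. CHR and CCAAT matches were present both in Bub3, at the top of the levels given next, and in Ccnb1, toward the bottom. The E2F letters were in the stretch of Ccnb1 only. Whether levels follow the matches was not tested.

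Mitotic transcripts were present but low beside other genes of at least 1 CPM (counts per 1000000 counts of the library). Every member had reads in all 3 libraries. Of the 40 members 39 averaged at least 1 CPM, against 30.2% of all 44788 symbols. At least 10 CPM was reached by 9 members (22.5%), against 69.1% of the genes of at least 1 CPM. Only 1 member exceeded 100 CPM. The median member stood at 5.43 CPM, against 26.9 CPM for the median of the 13530 genes of at least 1 CPM, and 36 of the 40 lay below that median. Per kilobase (kb) of merged exon, the scale of the ratios between genes given below, the median member stood at 1.095 CPM per kb, against 8.26 CPM per kb for the 12831 of those genes that have a length, and 38 of the 40 lay below it. All members together took 460, 456 and 437 CPM in replicates 1, 2 and 3, or 0.0451% of counts. Bub3 alone supplied 27.0% of that sum and the 4 highest members 52.8%. A low level in such bulk RNA cannot be split into few cells with the transcript and little transcript per cell.

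The libraries held 19041670, 12669690 and 14715992 counts, so a member near 2 CPM such as Pttg1 rests on 27 to 39 reads. All 10 T cell identity genes checked were above 100 CPM (Cd3e at 417 ± 20.4 CPM; SD, n = 3, as throughout). The 6 B cell markers summed to between 16.7 and 18.5 CPM, and the 7 monocyte and macrophage markers to between 3.63 and 4.55 CPM. Most of the latter sum was Cd68, with 80, 46 and 65 reads (4.08 ± 0.406 CPM), while Csf1r, C1qa, C1qc and Fcgr1 had 0 reads. The B cell sum is of the size of several members, and what such cells contributed to the mitotic transcripts was not tested.

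**Figure D1:**
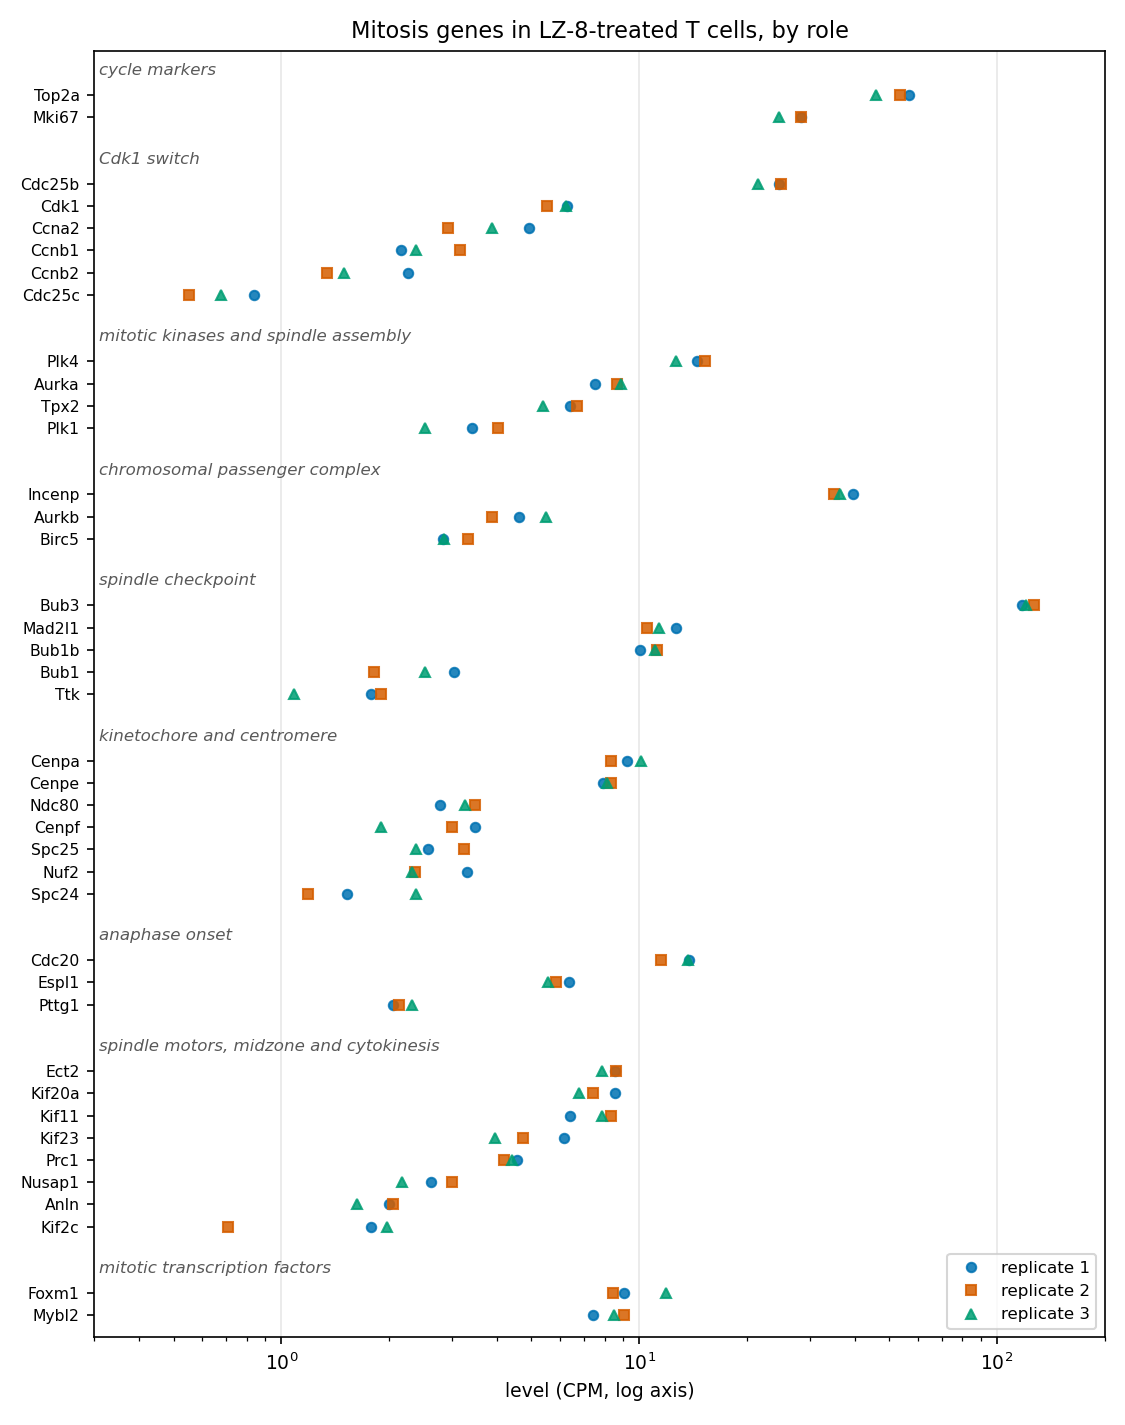
Level of each of the 40 mitosis genes (CPM, log axis) in the 3 libraries of T cells treated with LZ-8 for 15 h, with 1 symbol for each replicate, grouped by role. Bub3 stands alone above 100 CPM, and 30 of the 40 genes average between 1 and 10 CPM.

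The cycle markers Top2a and Mki67 were the second and the fourth of the members by CPM. Top2a, the topoisomerase that untangles sister chromatids, stood at 56.9, 53.5 and 45.9 CPM in replicates 1, 2 and 3. Replicate 3 was the lowest. Mki67, which coats mitotic chromosomes and gives the Ki-67 antigen, stood at 28.4, 28.3 and 24.6 CPM, again lowest in replicate 3. Per kb of exon Top2a reads exceeded Mki67 reads in all 3 libraries, with a log2 ratio of Mki67 to Top2a of -1.098 ± 0.056. Top2a lies on chromosome 11 at 98992943 to 99024189 and Mki67 on chromosome 7 at 135689784 to 135716361 (GRCm38, as for all gene positions).

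Among the genes of the Cdk1 switch the phosphatase Cdc25b was the highest, by CPM and per kb. Cdc25b, which removes the inhibitory phosphates of Cdk1, stood at 24.6, 24.9 and 21.5 CPM. Its paralog Cdc25c had 16, 7 and 10 reads (0.691 ± 0.144 CPM) and was the only member under 1 CPM. Their ranges were far apart in every library, and per kb Cdc25b exceeded Cdc25c 43.6-fold (log2 ratio 5.45 ± 0.31). Cdk1, the mitotic kinase itself, stood at 6.30, 5.52 and 6.25 CPM. Ccna2, the cyclin of S phase and G2, stood at 4.94, 2.92 and 3.87 CPM, highest in replicate 1. Ccnb1, the main partner of Cdk1, had 41, 40 and 35 reads, or 2.15, 3.16 and 2.38 CPM. Ccnb2, the Golgi-associated B cyclin, had 43, 17 and 22 reads, or 2.26, 1.34 and 1.49 CPM. The 2 B cyclins overlapped in CPM. Per kb Ccnb1 was below Ccnb2 in 3 of 3 libraries (log2 ratio -0.86 ± 0.64), but by reads alone it was above in replicates 2 and 3 and slightly below in replicate 1 (mean log2 ratio 0.60), so their order is not settled. Per kb Cdk1 exceeded Ccnb1 2.02-fold, in 3 of 3 libraries (log2 ratio 1.01 ± 0.39). The ratio of Ccna2 to Ccnb1 was positive in replicates 1 and 3 and near 0 in replicate 2 (1.23, 0.74 and -0.06), so it did not hold its direction.

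Among the mitotic kinases and their partners Plk4 was the highest by CPM and Aurka per kb. Plk4, which licenses centriole duplication, stood at 14.5, 15.2 and 12.6 CPM. The spindle kinase Aurka stood at 7.51, 8.68 and 8.90 CPM, and its activator on spindle microtubules Tpx2 at 6.41, 6.71 and 5.37 CPM. Plk1, the kinase of mitotic entry and exit, stood at 3.41, 4.03 and 2.51 CPM. The log2 ratio of Plk1 to Plk4 was -0.46 ± 0.20 per kb of merged exon (2199 bases for Plk1 and 6855 for Plk4) but -1.44 per kb of longest transcript, so only its direction held, and its size depends on the length used. Aurka exceeded Tpx2 2.51-fold per kb, and exceeded its paralog Aurkb 2.10-fold (log2 ratio 1.07 ± 0.27), each in 3 of 3 libraries.

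Among the members were 3 subunits of the chromosomal passenger complex, 1 of them well above the other 2 in level. Incenp, its scaffold, stood at 39.5, 35.0 and 36.4 CPM, the third of all members by CPM and the second per kb. Aurkb, its kinase, stood at 4.62, 3.87 and 5.50 CPM. Birc5 (survivin), which brings the complex to centromeres, had 54, 42 and 42 reads, or 2.84, 3.32 and 2.85 CPM. Incenp did not overlap with either partner, and per kb exceeded Birc5 9.59-fold (log2 ratio 3.26 ± 0.21; Incenp was 93.3%, 91.3% and 92.7% of the reads of both genes, with exact 95% intervals of 91.3 to 94.9%, 88.5 to 93.7% and 90.3 to 94.7%). These intervals cover counting error only.

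The spindle checkpoint showed the widest spread of levels within a role. Bub3, the adaptor that brings Bub1 and BubR1 to kinetochores, stood at 118, 127 and 121 CPM. It lies on chromosome 7 at 131560222 to 131571895, and its level exceeded 84.8% of the genes of at least 1 CPM. Mad2l1, which inhibits Cdc20, stood at 12.7, 10.5 and 11.3 CPM, and Bub1b (BubR1), also a part of that inhibitor, at 10.03, 11.2 and 11.1 CPM. The kinase Bub1 had 58, 23 and 37 reads (2.46 ± 0.617 CPM) and the kinase Ttk (MPS1), which starts the checkpoint signal, 34, 24 and 16 reads (1.59 ± 0.438 CPM). Bub3 was separate from all the other members in every library. Per kb Bub3 exceeded Mad2l1 12.7-fold (log2 ratio 3.66 ± 0.19), and Bub1 was below its paralog Bub1b by 4.505-fold (log2 ratio -2.17 ± 0.45), each in 3 of 3 libraries.

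No kinetochore gene among the members reached an average of 10 CPM. Cenpa, the histone variant that marks centromeres, stood at 9.24, 8.37 and 10.1 CPM, and the kinesin Cenpe, which moves chromosomes to the spindle equator, at 7.93, 8.37 and 8.15 CPM. Cenpe had the smallest relative spread of all members, a coefficient of variation of 2.68%, which is under the 8.99% that counting alone would give on average. Cenpf, a large kinetochore and nuclear envelope protein, had 66, 38 and 28 reads (2.79 ± 0.803 CPM), and with the longest exons of all members (15433 bases) it was the second lowest per kb. The 4 subunits of the NDC80 complex, which holds the microtubule end, were close to each other by CPM: Ndc80 at 3.17 ± 0.353 CPM, Spc25 at 2.73 ± 0.450 CPM, Nuf2 at 2.66 ± 0.560 CPM and Spc24 at 1.70 ± 0.616 CPM. Their ratios did not keep a direction, with log2 ratios per kb of -0.28, 0.51 and 0.46 for Ndc80 to Nuf2 and -0.44, -1.11 and 0.31 for Spc24 to Spc25 in replicates 1, 2 and 3.

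The anaphase genes were led by Cdc20, the APC/C activator that the checkpoint inhibits. Cdc20 stood at 13.8, 11.5 and 13.7 CPM and was the third member per kb. It lies on chromosome 4 at 118432901 to 118437352. Espl1 (separase), the protease that cuts cohesin, stood at 6.35, 5.84 and 5.57 CPM, and its inhibitor Pttg1 (securin) had 39, 27 and 34 reads (2.16 ± 0.134 CPM). By reads Pttg1 was below Espl1 (log2 ratio -1.44), whereas per kb it was above in 3 of 3 libraries (0.69 ± 0.18), since Espl1 has 8749 bases of merged exon and Pttg1 has 2000. Cdc20 and its inhibitor Mad2l1 had similar read numbers, and per kb Cdc20 was 5.07-fold higher (log2 ratio 2.34 ± 0.09).

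Spindle motors and cytokinesis genes ranged from 1.49 to 8.35 CPM. Ect2, the exchange factor that activates RhoA for the cleavage furrow, stood at 8.56, 8.60 and 7.88 CPM. Kif20a, a kinesin of the central spindle, stood at 7.59 ± 0.895 CPM and Kif11 (Eg5), which pushes spindle poles apart, at 7.55 ± 1.02 CPM. Kif23, the kinesin of the centralspindlin complex, stood at 6.14, 4.74 and 3.94 CPM, and Prc1, which bundles midzone microtubules, at 4.39 ± 0.194 CPM. The lowest of the group by CPM were the spindle protein Nusap1 (2.60 ± 0.413 CPM), the furrow scaffold Anln (anillin; 1.89 ± 0.229 CPM) and the microtubule-depolymerising kinesin Kif2c (1.49 ± 0.681 CPM). Kif2c had 34, 9 and 29 reads and the widest relative spread of all members, a coefficient of variation of 45.7%, against 23.0% from counting alone. Replicate 2 was the low library for Kif2c. Per kb Kif20a exceeded Kif23 2.83-fold (log2 ratio 1.499 ± 0.152), in 3 of 3 libraries, but per kb of longest transcript the log2 ratio was 0.52. Kif20a also shares 26.7% of its 31-base words with Cdc23, whose reads are given below.

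Both transcription factors of the mitotic programme were near 9 CPM. Foxm1 stood at 9.09, 8.45 and 11.9 CPM, highest in replicate 3, and Mybl2 (B-MYB) at 7.41, 9.08 and 8.49 CPM. Their log2 ratio per kb was 0.09 ± 0.30 (Mybl2 to Foxm1) and changed sign between libraries, so the 2 genes could not be ordered.

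**Figure D2:**
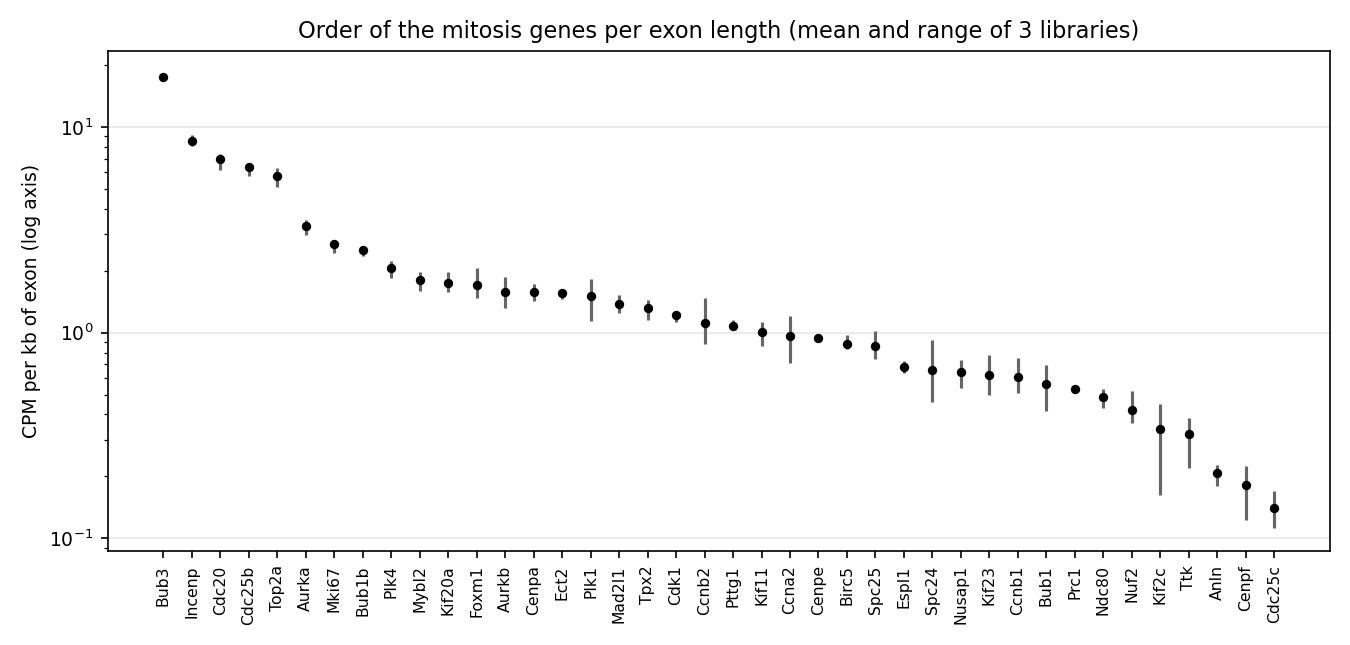
The 40 mitosis genes in order of mean CPM per kb of merged exon (log axis), with points for the mean and vertical lines for the range of the 3 libraries. Bub3, Incenp, Cdc20, Cdc25b and Top2a form the upper end, and 33 of the 39 neighbouring pairs have ranges that overlap.

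In the order per kb, only 6 of the 39 neighbouring pairs had ranges over the libraries that did not overlap. They were Bub3 (17.4 ± 0.709 CPM per kb) above Incenp (8.54 ± 0.534), Incenp above Cdc20 (6.96 ± 0.686), Top2a (5.78 ± 0.626) above Aurka (3.30 ± 0.296), Aurka above Mki67 (2.69 ± 0.215), Bub1b (2.52 ± 0.151) above Plk4 (2.06 ± 0.196) and Spc25 (0.856 ± 0.141) above Espl1 (0.677 ± 0.0454), all in CPM per kb. From Plk4 down to Spc25 no neighbours were separate. The lower end, from Kif2c (0.341 ± 0.156 CPM per kb) through Ttk, Anln and Cenpf to Cdc25c (0.140 ± 0.0293 CPM per kb), also had overlapping neighbours.

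**Figure D3:**
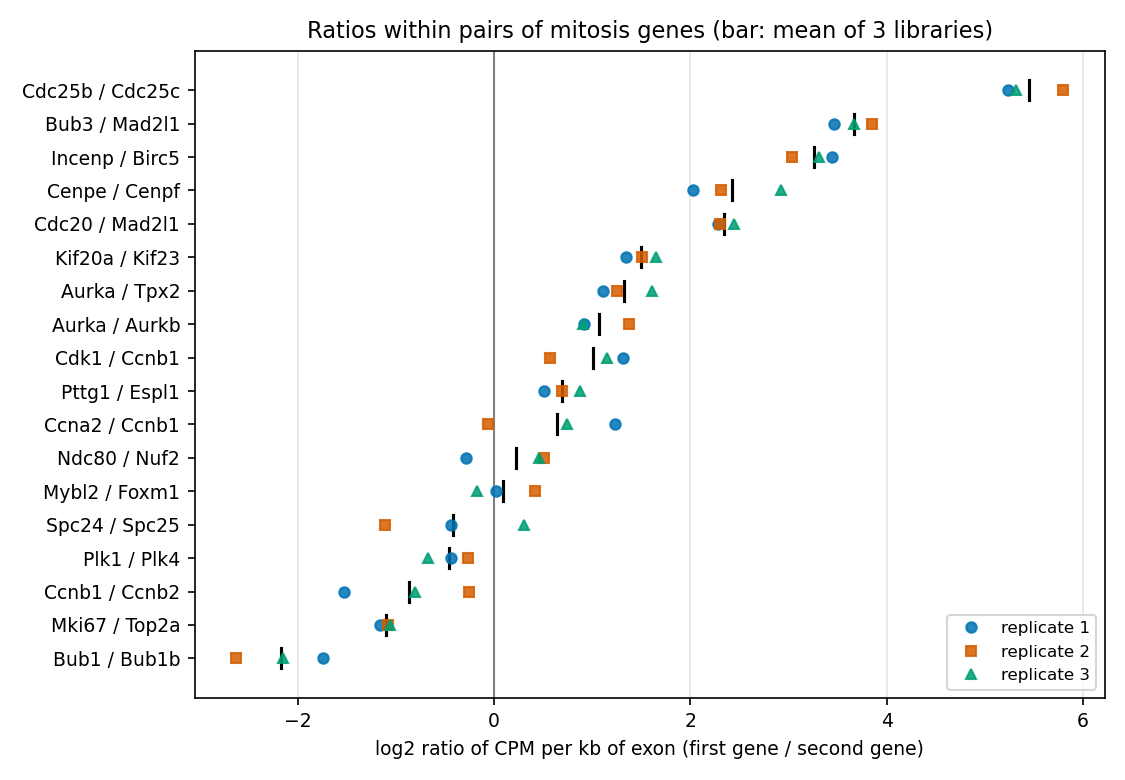
Log2 ratio of CPM per kb of exon within 18 pairs of partners or paralogs among the mitosis genes, first gene over second, with 1 symbol for each replicate and a bar for the mean. In 14 pairs the 3 libraries lie on the same side of 0, from Cdc25b to Cdc25c at 5.45 down to Bub1 to Bub1b at -2.17.

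Of the 18 ratios compared, 14 had the same direction in all 3 libraries. An exact two-sided sign-flip permutation test over the libraries cannot go below p = 0.25 with 3 libraries, so none of the ratios could pass 0.05 (smallest adjusted p = 0.321 over the 18). The directions are therefore given as counts of libraries. Besides the ratios of Plk1 to Plk4 and Kif20a to Kif23, 5 moved by more than 1.5 times when lengths were those of the longest transcript, keeping their direction: Mki67 to Top2a (log2 ratio -1.89), Ccnb1 to Ccnb2 (-0.10), Cdk1 to Ccnb1 (0.43), Cdc25b to Cdc25c (4.82) and Bub3 to Mad2l1 (4.31).

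The replicates were compared to see how far a member's level can be trusted. Of the 13500 genes that passed the filter (1 CPM or more in 2 or more libraries), 13.7% differed between the libraries beyond counting noise (edgeR likelihood-ratio test with dispersion 0, adjusted p under 0.05 over all genes), a test of these libraries and not of a condition. Of the 40 members 39 entered the test, all but Cdc25c, and 2 were called, which is under that background and also under the 9.93% among genes in the members' CPM range. They were Top2a (log2 range 0.30, adjusted p = 0.00176), lowest in replicate 3, and Foxm1 (log2 range 0.50, adjusted p = 0.0490), highest in replicate 3, so the 2 moved in opposite directions. Kif2c narrowly missed the threshold (log2 range 1.47, adjusted p = 0.0584). At an unadjusted p under 0.05 there were 8 members (20.5% of those tested), against 27.8% of all genes tested. The call for Foxm1 was lost with unscaled library totals or without the filter on low counts. Without replicate 1 only Foxm1 was called, without replicate 2 only Top2a, and without replicate 3 none (edgeR; 5 members at an unadjusted p under 0.05). The median range of the tested members was 0.31 log2 units, against 0.17 over all genes tested and 0.18 over genes in the members' CPM range. That CPM range runs from 1.49 to 122 CPM and is not matched to the members' low levels, and the test has less power at low counts. The smaller shares called therefore do not show that members varied less. No replicate was uniformly high. With CPM scaled by TMM factors, unlike the CPM printed above, 14, 18 and 8 members were highest in replicates 1, 2 and 3.

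Some levels may hold reads of other genes, because how reads in shared or overlapping sequence were counted is not given. Of the 40 members, 14 shared at least 5% of their 31-base words with transcripts of another gene in GENCODE vM21, and 4 shared at least 20%. Ccnb1 shared 27.8%, mainly with processed pseudogenes, of which Gm12856 had 15, 14 and 19 reads beside 41, 40 and 35 for Ccnb1. Cdc20 shared 26.7%, mostly with the pseudogene Gm7856, which had 7, 4 and 3 reads. Mybl2 shared 21.1%, mostly with the pseudogene Gm3320, which had 57, 59 and 62 reads beside 141, 115 and 125 for Mybl2. The levels of these genes are uncertain. Kif20a shared 26.7%, all of it with Cdc23, an APC/C subunit on the opposite strand that had 1374, 846 and 1015 reads beside 163, 94 and 100 for Kif20a. Likewise Ccna2 shared 12.0% with other genes, mainly with Exosc9 on the opposite strand, which had 1100, 726 and 756 reads. Cdc25c shared 13.3%, mainly with Gm3550 on the opposite strand, which had 8, 9 and 6 reads beside 16, 7 and 10 for Cdc25c. For 8 members an exon overlapped an exon of a gene on the opposite strand, and without strand such reads could not be told apart. On the same strand, exons of Foxm1 overlapped exons of Tex52 and Gm44596, and exons of Top2a overlapped the small nucleolar RNA gene Gm23451. Strand would not separate those reads. Bub3 shared 2.53%, Top2a 4.80% and Incenp none.

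The members were then set beside other genes of mitosis and of the cell cycle. By the median per kb, the list nearest to them was one of 29 other mitotic effectors, such as the motor Kif4 and the spindle protein Aspm, which had a median of 4.01 CPM and 0.922 CPM per kb, against 5.43 CPM and 1.095 CPM per kb for the members. By the median CPM the constitutive centromere list was nearer, at 5.03 CPM (1.60 CPM per kb). In the list of other effectors 25 of 29 genes reached 1 CPM and 7 reached 10 CPM, with Gtse1 (93.5 ± 4.03 CPM) and Racgap1 (27.1 ± 1.56 CPM) the highest by CPM and Depdc1a (1, 4 and 0 reads) the lowest. The 14 APC/C subunits had a median of 55.6 CPM (10.1 CPM per kb), led in CPM by Anapc5 at 273 ± 3.99 CPM and Anapc1 at 271 ± 6.75 CPM. Of the partners of the APC/C, its E2 enzyme Ube2c stood at 1.57 ± 0.586 CPM, the second E2 enzyme Ube2s at 23.9 ± 0.469 CPM and the interphase inhibitor Fbxo5 (EMI1) at 7.98 ± 1.37 CPM. Fzr1 (CDH1), the coactivator of late mitosis and G1, stood at 59.9 ± 3.67 CPM, and per kb at 13.3 ± 0.817 it was above Cdc20 at 6.96 ± 0.686 CPM per kb.

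Condensin, which compacts mitotic chromosomes, had a median of 62.4 CPM over 8 genes (9.995 CPM per kb), with its ATPases Smc4 at 175 ± 6.05 CPM and Smc2 at 57.7 ± 3.51 CPM. The condensin I subunits were Ncapd2 at 67.0 ± 2.79, Ncaph at 12.4 ± 1.18 and Ncapg at 4.21 ± 0.502 CPM. The condensin II subunits were Ncaph2 at 147 ± 1.12, Ncapd3 at 74.6 ± 4.73 and Ncapg2 at 22.4 ± 0.942 CPM, so each complex held subunits of high and of low level. Cohesin and its regulators had a median of 156 CPM over 12 genes (18.03 CPM per kb), led in CPM by the loader Nipbl at 264 ± 17.9 CPM. The shugoshins, which protect centromeric cohesin in mitosis, were the lowest of the cohesin list by CPM, Sgo1 (listed as Sgol1) at 2.54 ± 0.201 CPM and Sgo2a (listed as Sgol2) at 2.37 ± 0.209 CPM. Of the cohesin list 6 of 12 genes varied between the libraries in the same edgeR test (Smc3, Stag1, Stag2, Nipbl, Pds5a and Pds5b), against 13.7% of all genes tested. That difference was not tested, and these 6 genes were named after their values were seen. All 6 averaged at least 81.3 CPM with log2 ranges of at most 0.234, and the test detects smaller shifts at higher counts. In the T cell identity list, also of high level, 7 of 10 genes were called, so the share is not particular to cohesin.

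**Figure D4:**
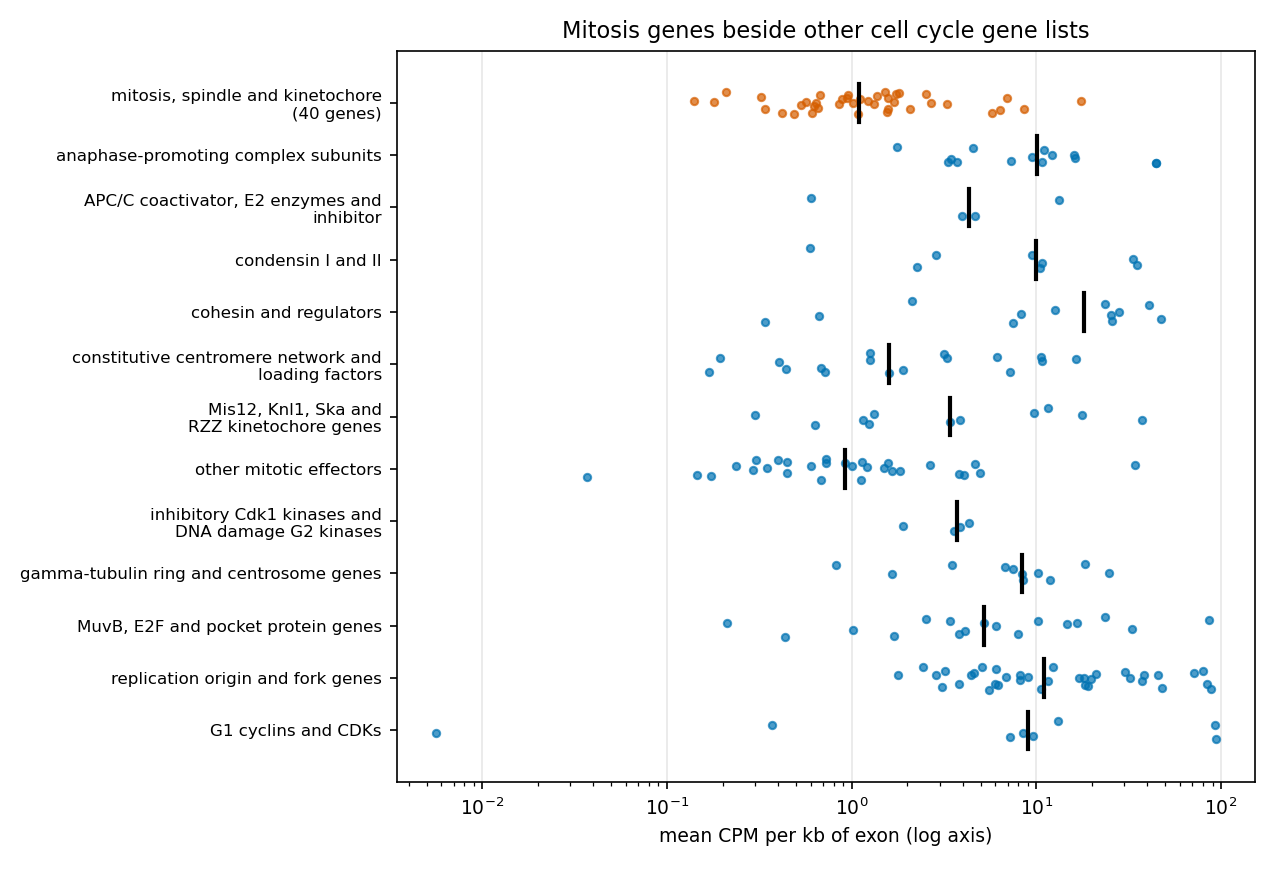
Mean CPM per kb of exon (log axis) of each gene in the 40 mitosis genes (top, orange) and in 12 other cell cycle gene lists (blue), with a black bar for each list's median. The median of the mitosis genes, 1.095 CPM per kb, lies near that of the other mitotic effectors (0.922) and below that of the replication genes (11.05).

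Genes of replication origins and forks, which act before mitosis in the cycle, had the higher median. The 36 replication genes had a median of 52.7 CPM (11.05 CPM per kb), all of them reached 1 CPM and 34 reached 10 CPM, led in CPM by the helicase subunits Mcm5 (337 ± 12.4 CPM) and Mcm2 (335 ± 1.82 CPM). The difference between the medians of log2(CPM per kb + 1), members minus replication genes, was -2.52 when taken from CPM averaged over the libraries. Taken in each library it was of like size (-2.49, -2.52 and -2.46, with an SD of 0.03). The lists overlapped, with Bub3 at 17.4 CPM per kb above the replication median and Gins1, the lowest replication gene by CPM, at 4.88 ± 0.868 CPM and 3.22 ± 0.572 CPM per kb. Genes are not replicates, so this difference is a description of the lists and carries no test.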

How the data were processed

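RNA was sequenced from 3 libraries of splenic T lymphocytes treated with LZ-8 for 15 h, made with an Ion Proton RNA-seq kit per the labels' protocols. The deposited values are raw counts per gene symbol in a single table, whole numbers whose total differs between libraries. Per the submitters' processing notes the build was mm10; what aligner, counter, annotation and strand setting were used is not given in the sources used here.

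The members, lists, pairs and tests were chosen with earlier results of these data known. CPM is counts over the library total; a value is the mean and SD of 3 libraries. Per-kb values use merged exons of GENCODE vM21 (GRCm38, the assembly mm10 denotes), which gave lengths for 32226 of 44788 symbols. All 240 list entries were in the table, 6 under an older symbol. With 1 group, no contrast of conditions and no quasi-likelihood test could be fitted. Library differences were tested over all genes with edgeR 4.0.16 (TMM factors; dispersion fixed at 0; likelihood-ratio test; p adjusted by Benjamini-Hochberg), checked on simulated data. Ratios had 0.5 added to each count, with exact (Clopper-Pearson) 95% intervals. Eligible to be named were all members and, of other lists, the 3 highest and 2 lowest genes by CPM, or all genes of lists of at most 8; genes outside this are named where they varied, or as examples of a list, and were chosen after their values were seen. Protein sequences were not used here, and the erythroid marker list is not reported here. Alternatives were DESeq2 1.42.0 size factors, unscaled totals, other filters, lengths and added counts, and leaving out each library in turn. Software was Python 3.11.15 with pandas 2.3.3, matplotlib 3.10.9, scipy 1.17.1 and numpy 2.4.6, and R 4.3.3.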

Additional observations from a re-analysis of the deposited data

How the results depend on the processing

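No paired analysis was possible because there is only 1 group of libraries. The count of members that varied between libraries was 2, stayed at 2 with DESeq2 size factors and with a filter on all 3 libraries, fell to 1 with unscaled totals or without a filter, and was 0 to 1 when a library was removed. Counts this small say little about which members vary. The number of members of at least 1 CPM was 39 under all 4 alternatives run. The median of members minus that of replication genes, -2.52, kept its sign and was -3.22 with 0.1 added, -2.84 per longest transcript, -3.07 without length scaling and between -2.54 and -2.48 with a library left out. Without length scaling 3 pair ratios changed sign, Ccnb1 to Ccnb2 (0.60), Pttg1 to Espl1 (-1.44) and Mybl2 to Foxm1 (-0.22); the last also did without replicate 2, its values with a library removed lying between -0.076 and 0.22. The other 104 alternative values of the 18 ratios kept their direction. Chosen after seeing the data, leaving out the members that share at least 5% of their 31-base words gave a median of 6.09 CPM, against 5.43 CPM for all members, and leaving out Bub3 gave a sum of 329 CPM, against 451 CPM. Depth limits the members at or below the level of Birc5, where counting alone gives a relative error of 14.8% or more.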

Other observations

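Levels differed widely among other genes of the centromere, the kinetochore and mitosis. Hjurp, the chaperone that loads Cenpa onto centromeres, stood at 135, 137 and 136 CPM, and per kb at 16.3 CPM, against 1.58 CPM per kb for Cenpa itself. Zwint, an outer kinetochore protein, stood at 165, 166 and 169 CPM, and Gtse1, a microtubule-binding protein of G2 and mitosis, at 89.0, 96.7 and 94.8 CPM. These 3 genes, singled out after their values were seen, shared 1.30%, 4.46% and 0% of their 31-base words with other genes and overlapped no annotated gene. Of the 17 genes of the constitutive centromere network and its loading factors the median was 5.03 CPM and 7 reached 10 CPM, with Cenpk (1.01 ± 0.268 CPM) and Cenpp (0.432 ± 0.158 CPM) the lowest. Of the 11 Mis12, Knl1, Ska and RZZ genes the median was 12.9 CPM, with Knl1 (listed as Casc5) at 2.55 ± 0.118 CPM and Ska1 at 1.70 ± 0.543 CPM.

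Genes that hold mitosis back and that build centrosomes were also present. The Cdk1-inhibiting kinases Pkmyt1 and Wee1 stood at 15.7 ± 0.0611 and 13.2 ± 0.497 CPM, and the checkpoint kinases Chek1 and Chek2 at 16.7 ± 0.657 and 5.72 ± 0.275 CPM. The 11 gamma-tubulin ring and centrosome genes had a median of 56.9 CPM, from Pcnt (pericentrin) at 143 ± 2.79 CPM to the centriole assembly genes Sass6 (10.2 ± 1.38 CPM) and Stil (4.78 ± 0.745 CPM). The 17 MuvB, E2F and pocket protein genes had a median of 20.4 CPM, and 15 reached 10 CPM. The 3 highest were the repressor genes E2f4 and Rbl2 (p130), at 210 ± 15.8 and 126 ± 3.54 CPM, and Rbbp4 at 205 ± 5.82 CPM. The 2 lowest were E2f7 and E2f8, which the E2F programme itself induces, at 1.90 ± 0.438 and 2.37 ± 0.375 CPM. Among the G1 cyclins Ccnd2 stood at 882 ± 50.7 CPM and Ccnd3 at 83.7 ± 1.69 CPM, while Ccnd1 had 0, 1 and 0 reads, and Ccne1 stood at 22.7 ± 1.87 CPM and Ccne2 at 1.30 ± 0.280 CPM.

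Of the 29 other mitotic effectors 25 were tested, and 4 varied between libraries in the edgeR likelihood-ratio test, against 13.7% of all genes tested. They were Hmmr (1.42, 2.68 and 0.680 CPM, adjusted p = 0.00243), Kif18a (4.36, 2.68 and 1.97 CPM, adjusted p = 0.00490), Aspm (3.83, 2.60 and 1.77 CPM, adjusted p = 0.0170) and Kifc1 (14.4, 17.996 and 18.3 CPM, adjusted p = 0.0436). Kif18a and Aspm were highest in replicate 1, Hmmr in replicate 2 and Kifc1 in replicate 3. Of the 11 Mis12, Knl1, Ska and RZZ genes 1 varied, Nsl1 (5.57, 5.84 and 9.51 CPM, adjusted p = 0.000664), highest in replicate 3.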
